A study of Mus musculus with 4 samples.

Results

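Genes of the transforming growth factor beta (TGF-beta), activin and bone morphogenetic protein (BMP) pathways were read in mouse cancer-associated fibroblasts (CAFs), which are fibroblasts that live inside a tumour. The 59 genes were chosen by symbol, as ligands, receptors, extracellular binding proteins and signal transducers of the family, and all 59 were among the 23377 genes of the count table. They were sorted by textbook role into 22 genes of the TGF-beta and activin arm, 27 of the BMP arm and 10 that serve both arms. Polyadenylated RNA was sequenced in 2 libraries of CAFs associated with a tumour labelled resistant (title RES4) and in 2 libraries of CAFs associated with a tumour labelled normal (title WTA). The series is about tumours that become resistant to drugs aimed at MET and EGFR, and about lactate given off by their cells. The labels give no strain, age, treatment, sort or culture step for either group. Within a group the titles share 1 name and differ in the replicate number, so each group may be 1 tumour or 1 culture, and what is peculiar to that source cannot be told apart from the group.

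TGF-beta is secreted in a latent form, bound to latent TGF-beta binding proteins that tether it to the matrix, and is released by integrins, proteases or thrombospondin. Ligands of the family pair a type II with a type I receptor kinase. Receptors for TGF-beta and activin phosphorylate SMAD2 and SMAD3, and receptors for BMPs phosphorylate SMAD1, SMAD5 and SMAD9, and both sets act in the nucleus with SMAD4. SMAD6, SMAD7 and PMEPA1 are induced by the signal and restrain it, and the ID factors are direct BMP targets. In tumour stroma TGF-beta is known as an inducer of myofibroblast genes and matrix.

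The libraries held 2845237 and 2785936 reads in resistant tumour CAFs, against 3948066 and 5558541 reads in normal tumour CAFs. Values are CPM, read counts brought to a common library size with edgeR's trimmed mean of M values, and levels are compared between genes only after division by exonic length (CPM per kb). The 12001 genes that passed a filter on low counts were tested with edgeR's quasi-likelihood test, with Benjamini-Hochberg adjustment over all of them, and a gene is called at an adjusted p under 0.05. Of all genes tested, 29.4% were called, 15.5% higher and 13.9% lower in resistant tumour CAFs. Between replicates, log2 CPM differed with an SD across genes of 0.736 in resistant tumour CAFs and 0.492 in normal tumour CAFs. The labels call the libraries of a group biological replicates, but do not say that they came from separate animals or cultures. The p-values therefore measure the spread among these 4 libraries, and how much of that spread is technical is not known. In bulk RNA, fewer cells of a type and less RNA per cell cannot be told apart. Of 9 tested fibroblast markers 9 rose, and the 10 listed summed to 7759 and 7213 CPM in resistant tumour CAFs, against 3093 and 2543 CPM in normal tumour CAFs. Col1a1, Col1a2 and Col3a1 made up most of the normal sum. Pdgfra had 1119 and 881 CPM in resistant tumour CAFs, against 29.7 and 7.41 CPM in normal tumour CAFs. Dcn had 92.5 and 127 CPM in resistant tumour CAFs, against 0.743 and 0.168 CPM in normal tumour CAFs, and Lum had no read in the normal libraries. Pdgfra, Dcn and Lum were thus low or at 0 in the libraries labelled normal tumour CAFs. Of 6 tested Schwann cell and neural crest markers 6 fell, and the 10 listed summed to 10.3 and 10.3 CPM in resistant tumour CAFs, against 1253 and 1109.5 CPM in normal tumour CAFs, with Foxd3 at 0 in both resistant libraries. Of 6 tested pericyte and smooth muscle markers 2 rose and 2 fell, and the 8 listed summed to 87.1 and 69.0 CPM in resistant tumour CAFs, against 574 and 468 CPM in normal tumour CAFs, with Kcnj8 at 0 in all 4 libraries. Macrophage markers summed to 20.2 and 29.0 CPM in resistant tumour CAFs, against 8.42 and 9.59 CPM in normal tumour CAFs, with Ptprc, Emr1 and Aif1 at 0 in all 4 libraries and 1 of 3 tested higher. Epithelial markers summed to 45.7 and 63.9 CPM in resistant tumour CAFs, against 9.66 and 9.26 CPM in normal tumour CAFs. Epcam, Cdh1, Krt5 and Cldn4 were at 0 in all 4 libraries, and the 1 tested, Krt19, was higher. Krt19 made up the whole resistant sum, since the other 7 listed had no read in either resistant library. Krt14 went the other way, with 0 and 0 reads in resistant tumour CAFs, against 12 and 15 reads in normal tumour CAFs. The sums of these marker lists moved with the groups, and the part of the lists in the results given here was not tested.

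Of the 59 members, 48 passed the filter, 15 were called higher and 7 lower in resistant tumour CAFs, and 26 were not called. The calls made up 45.8% of the tested members, beside 29.4% of all genes tested. With library totals in place of scaled sizes the calls were 14 higher and 11 lower. In the TGF-beta and activin arm 9 of 22 tested members were higher and 4 lower, and in the BMP arm 4 of 16 tested members were higher and 0 lower. With library totals the TGF-beta and activin arm had 8 higher and 6 lower. Without normal replicate 2 its higher calls numbered 4, and the BMP arm had 2 lower calls without resistant replicate 1 and 1 without resistant replicate 2. The difference between the arms was not tested. Eng, called lower, was counted in the TGF-beta and activin arm, but its product also binds BMPs. The counts of each arm depend on that sorting. Among the 10 members that serve both arms 2 were higher and 3 lower, with 1 higher when either normal replicate was left out. The median log2 fold change was 0.13 in the TGF-beta and activin arm, 0.13 in the BMP arm and 0 over all genes tested, while the median of its size without sign was 1.62, 0.56 and 0.61. Ranges of the groups did not overlap for 35 of the 48 tested members (72.9%), beside 64.7% of all genes tested, and for all 22 called members. Of the tested members, 7 passed the filter through the libraries of 1 group only, and 6 of these were called: Eng, Gdf10, Bmpr1b, Grem1, Gdf15 and Acvr2b.

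**Figure D1:**
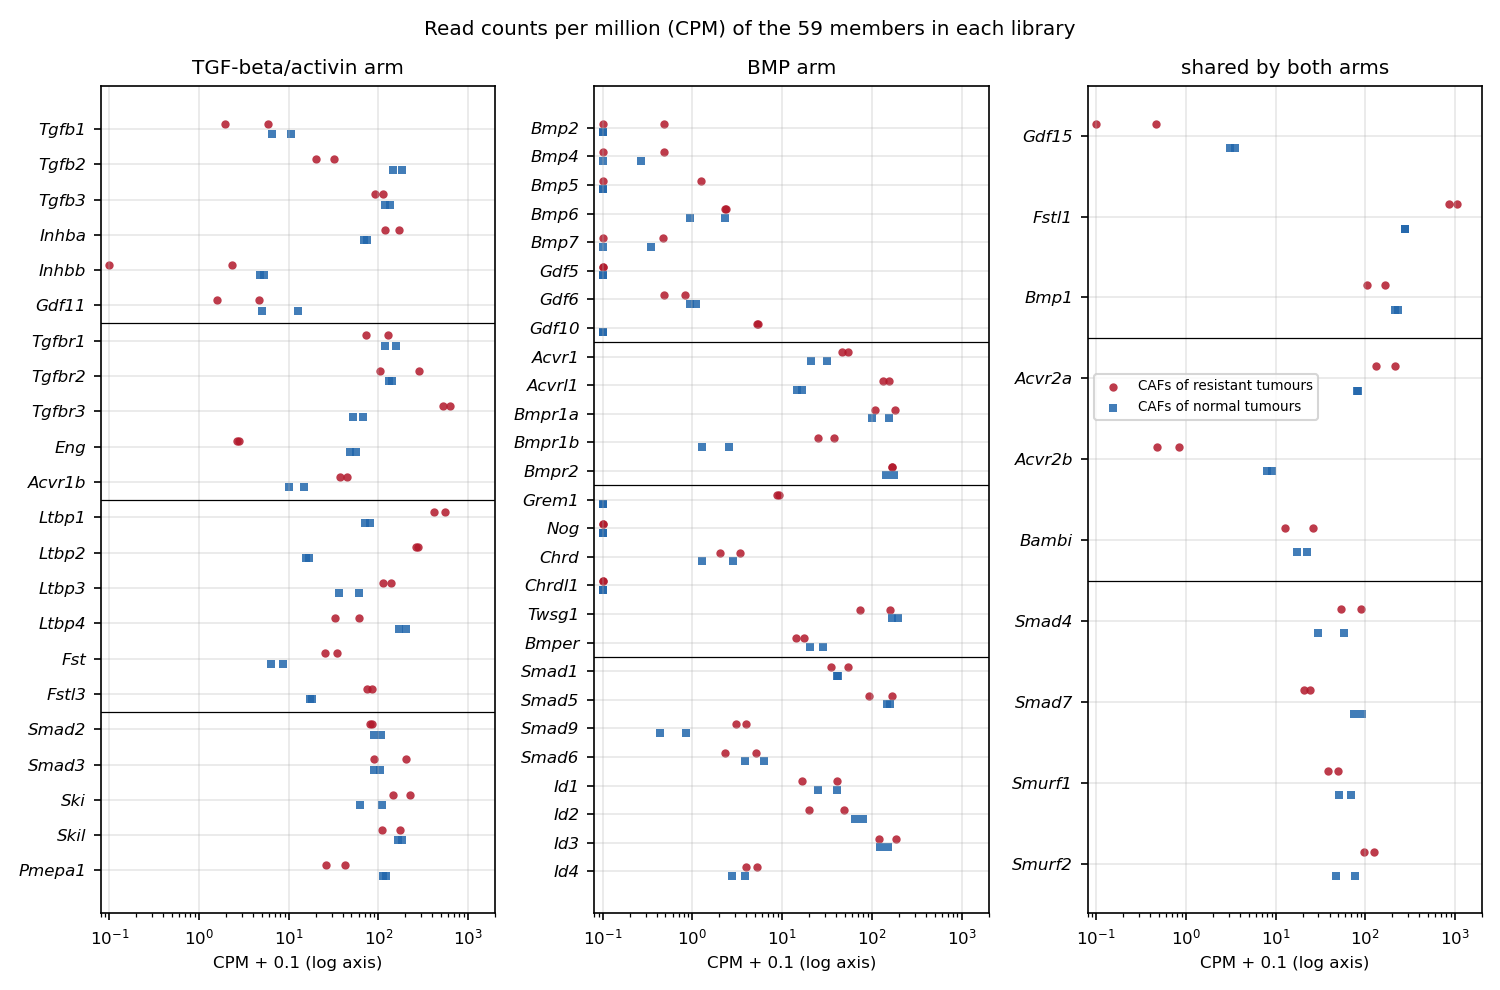
CPM of each of the 59 members in each library, with 0.1 added so that 0 can be drawn on the log axis; circles are the 2 libraries of resistant tumour CAFs, squares the 2 of normal tumour CAFs, and black lines part the roles (ligands, receptors, binding proteins and antagonists, signal transducers with targets and feedback; in the third panel the binding protein Fstl1 and the protease Bmp1 stand with the ligand). Most BMP ligands lie near 0 in all 4 libraries, while circles and squares stand well apart for Tgfb2, Tgfbr3, Eng, Ltbp1, Ltbp2 and Acvrl1.

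The TGF-beta ligand genes differed in their make-up between the groups. Tgfb2 encodes the TGF-beta2 ligand, which needs a co-receptor to bind its type II receptor well. It had 32.0 and 20.2 CPM in resistant tumour CAFs, against 145 and 185 CPM in normal tumour CAFs. Both resistant libraries lay far under both normal libraries, and Tgfb2 fell by 2.66 ± 0.36 (SE, edgeR adjusted p = 1.61e-04) on the log2 scale. Tgfb3, a ligand prominent in mesenchyme, had 112 and 92.5 CPM in resistant tumour CAFs, against 117 and 134 CPM in normal tumour CAFs. Its log2 fold change of -0.30 ± 0.30 (SE, edgeR adjusted p = 0.502) did not pass the test, although its ranges did not overlap. Tgfb1, the ligand best known from platelets and immune cells, was low, with 15 and 5 reads in resistant tumour CAFs, against 42 and 38 reads in normal tumour CAFs. Its log2 fold change was -1.14 ± 0.61 (SE, edgeR adjusted p = 0.187), and both resistant libraries lay under both normal ones in CPM.

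Per kb of exon, the share of Tgfb3 in the summed level of the 3 TGF-beta genes was 83.3% and 87.7% in resistant tumour CAFs, against 56.1% and 54.5% in normal tumour CAFs. The share of Tgfb2 was 13.9% and 11.2% in resistant tumour CAFs, against 40.6% and 43.8% in normal tumour CAFs. Thus Tgfb3 was the most abundant of the 3 in every library, and the share of Tgfb2 was lower in both resistant libraries. The sum of the 3 genes was 39.7 and 31.2 CPM per kb in resistant tumour CAFs, against 61.8 and 72.8 CPM per kb in normal tumour CAFs.

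Activin genes were led by Inhba, which encodes the subunit of activin A. It had 168 and 119 CPM in resistant tumour CAFs, against 73.8 and 68.3 CPM in normal tumour CAFs, with both resistant libraries above both normal ones. Inhba rose by 1.01 ± 0.32 (SE, edgeR adjusted p = 0.0292) on the log2 scale. The call was lost without normal replicate 1 (edgeR adjusted p = 0.321), without normal replicate 2 (edgeR adjusted p = 0.421) and with library totals (edgeR adjusted p = 0.0525). Inhbb, the subunit of activin B, had 0 and 6 reads in resistant tumour CAFs, against 19 and 31 reads in normal tumour CAFs. Its log2 fold change of -2.12 ± 0.83 (SE, edgeR adjusted p = 0.0754) did not pass here and passed in 7 alternatives, among them the likelihood ratio test (adjusted p = 0.0118) and the fit without resistant replicate 2 (edgeR adjusted p = 0.0247). Gdf11, a ligand that signals through activin receptors, had 12 and 4 reads in resistant tumour CAFs, against 51 and 29 reads in normal tumour CAFs, with a log2 fold change of -1.51 ± 0.67 (SE, edgeR adjusted p = 0.116). It passed in 3 alternatives, among them library totals (edgeR adjusted p = 0.0442), and ranged from -2.52 without resistant replicate 1 to -0.77 without normal replicate 1.

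Receptors of the arm did not move together. Tgfbr3 encodes betaglycan, the co-receptor that presents TGF-beta2 to the type II receptor and also binds inhibin. It had 627 and 525 CPM in resistant tumour CAFs, against 67.4 and 52.0 CPM in normal tumour CAFs, and rose by 3.27 ± 0.27 (SE, edgeR adjusted p = 7.65e-06) on the log2 scale. Eng encodes endoglin, the related co-receptor best known from endothelium, which binds BMP9 and BMP10. It had 2.66 and 2.57 CPM in resistant tumour CAFs, against 55.7 and 48.6 CPM in normal tumour CAFs, and fell by 4.30 ± 0.49 (SE, edgeR adjusted p = 4.97e-05). The co-receptor genes thus lay at opposite ends, each with all libraries of one group beyond all libraries of the other. Per kb, the share of Tgfbr3 in the sum of this pair was 99.3% and 99.2% in resistant tumour CAFs, against 42.8% and 39.8% in normal tumour CAFs. The endothelial markers Tie1 and Emcn had no read in any library, and the 10 endothelial markers listed, Pecam1, Cdh5 and Kdr among them, summed to 3.42 and 1.84 CPM in resistant tumour CAFs, against 5.95 and 3.20 CPM in normal tumour CAFs. None of the 10 passed the filter on low counts. Vwf (von Willebrand factor) was the one with the most reads. It had 1 and 0 reads in resistant tumour CAFs, against 17 and 7 reads in normal tumour CAFs. Vwf lay in the same direction as Eng, but the list did not share 1 direction. Tek had 6 and 1 reads in resistant tumour CAFs, against 2 and 9 reads in normal tumour CAFs. Cdh5 had 1 and 1 reads in resistant tumour CAFs, against 0 and 1 reads in normal tumour CAFs. The part of endothelial cells in the level of Eng was not tested.

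Tgfbr1 and Tgfbr2, the type I and type II receptors of TGF-beta itself, did not pass the test. Tgfbr1 had 129 and 72.7 CPM in resistant tumour CAFs, against 155 and 118 CPM in normal tumour CAFs, and Tgfbr2 had 286 and 103 CPM in resistant tumour CAFs, against 141 and 131 CPM in normal tumour CAFs. The ranges of both genes overlapped between the groups. For Tgfbr2 the resistant replicates stood on either side of the normal ones, and its log2 fold change of 0.51 ± 0.39 was -0.39 without resistant replicate 1 and 1.07 without resistant replicate 2. Without resistant replicate 2 it passed the test (edgeR adjusted p = 0.0105), and Tgfbr1 passed without resistant replicate 1, at -0.90 (edgeR adjusted p = 0.0324). Acvr1b, the type I receptor of activin, had 44.5 and 37.4 CPM in resistant tumour CAFs, against 14.6 and 10.1 CPM in normal tumour CAFs. It rose by 1.73 ± 0.42 (SE, edgeR adjusted p = 0.00797), a call lost without normal replicate 2 (edgeR adjusted p = 0.19).

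Type II receptors of activin, which BMPs also use, differed in direction, as the co-receptors did. Acvr2a had 216 and 133 CPM in resistant tumour CAFs, against 83.0 and 80.1 CPM in normal tumour CAFs, and rose by 1.10 ± 0.32 (SE, edgeR adjusted p = 0.02). Its call was lost without normal replicate 1 (edgeR adjusted p = 0.242) or normal replicate 2 (edgeR adjusted p = 0.291). Acvr2b had 1 and 2 reads in resistant tumour CAFs, against 36 and 47 reads in normal tumour CAFs. The normal-to-resistant ratio of its pooled counts, scaled by library size, was 14.8 (exact 95% counting interval 4.91 to 73.4), and it was called lower (edgeR adjusted p = 0.00142). At its normal level of 2.14 CPM per kb Acvr2b was the rarer of the 2 genes in both groups, with Acvr2a at 30.7 CPM per kb in resistant tumour CAFs and 14.3 CPM per kb in normal tumour CAFs.

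All 6 extracellular binding proteins and antagonists of the arm were called, 5 of them higher, where 29.4% of all genes tested were called and 15.5% were higher. Ltbp1 and Ltbp2 are members of the latent TGF-beta binding protein family; Ltbp1 anchors latent TGF-beta in the matrix, while Ltbp2 is not known to bind it. Ltbp1 had 547 and 413 CPM in resistant tumour CAFs, against 80.3 and 70.0 CPM in normal tumour CAFs, and rose by 2.68 ± 0.27 (SE, edgeR adjusted p = 2.01e-05) on the log2 scale. Ltbp2 had 278 and 263 CPM in resistant tumour CAFs, against 16.6 and 15.5 CPM in normal tumour CAFs, and rose by 4.07 ± 0.31 (SE, edgeR adjusted p = 5.45e-06). The lowest resistant library exceeded the highest normal library several times over for both genes. Exons of Ltbp2 overlap an annotated antisense gene over 9.34% of their length, and that gene had 6 to 27 reads per library.

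Ltbp4, which binds TGF-beta1 and takes part in elastic fibre assembly, went the other way. It had 60.5 and 32.7 CPM in resistant tumour CAFs, against 202 and 171 CPM in normal tumour CAFs, and fell by 2.00 ± 0.35 (SE, edgeR adjusted p = 9.87e-04). Ltbp3, a further carrier of latent TGF-beta, had 113 and 137 CPM in resistant tumour CAFs, against 61.2 and 36.2 CPM in normal tumour CAFs, and rose by 1.37 ± 0.36 (SE, edgeR adjusted p = 0.0122). The call of Ltbp3 was lost without normal replicate 1 (edgeR adjusted p = 0.0671) and without normal replicate 2 (edgeR adjusted p = 0.393). Per kb of exon, the share of Ltbp4 in the summed level of the 4 Ltbp genes was 8.75% and 5.56% in resistant tumour CAFs, against 65.8% and 68.1% in normal tumour CAFs. The share of Ltbp1 was 47.8% and 42.5% in resistant tumour CAFs, against 15.8% and 16.8% in normal tumour CAFs, and that of Ltbp2 was 31.7% and 35.3% in resistant tumour CAFs, against 4.26% and 4.86% in normal tumour CAFs. Ltbp1 therefore led the family in both resistant libraries and Ltbp4 in both normal libraries, while the sum of the 4 was 107 and 91.0 CPM per kb in resistant tumour CAFs, against 47.6 and 38.9 CPM per kb in normal tumour CAFs.

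**Figure D2:**
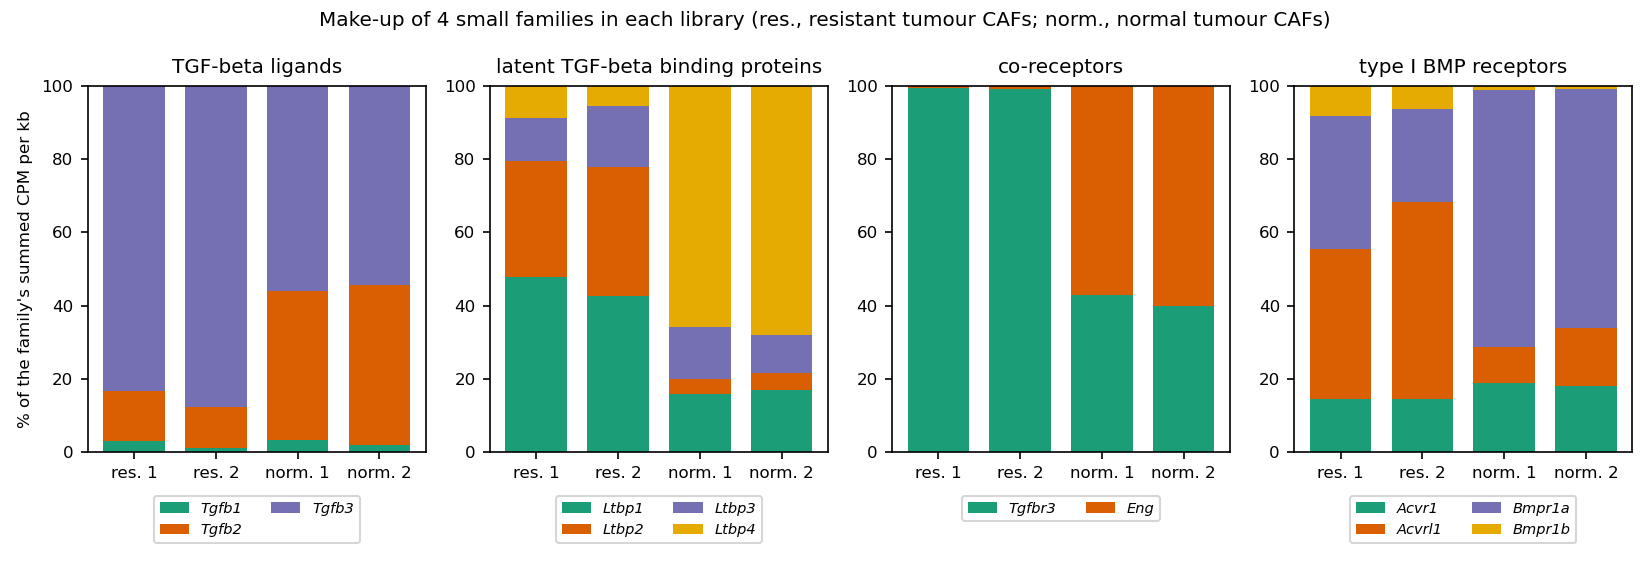
Share of each gene in the summed CPM per kb of its family, 1 bar per library, for 4 families named above the panels. Ltbp4 takes 8.75% and 5.56% of the latent TGF-beta binding proteins in resistant tumour CAFs, against 65.8% and 68.1% in normal tumour CAFs, and the co-receptor and type I BMP receptor panels differ between the groups in the same clear way.

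Follistatin and its relative FSTL3 are secreted proteins that trap activin. Fst had 25.1 and 34.1 CPM in resistant tumour CAFs, against 8.42 and 6.23 CPM in normal tumour CAFs, and rose by 2.02 ± 0.45 (SE, edgeR adjusted p = 0.00451). Fstl3 had 84.1 and 73.8 CPM in resistant tumour CAFs, against 17.1 and 17.8 CPM in normal tumour CAFs, and rose by 2.17 ± 0.38 (SE, edgeR adjusted p = 9.21e-04). Both resistant libraries lay above both normal ones for each gene. The call of Fst was lost without normal replicate 2 (edgeR adjusted p = 0.0911). Exons of Prss57 on the other strand overlap 47.3% of the exonic length annotated for Fstl3, and strand use in the counting is not given in the sources used here. Prss57 itself had at most 1 read per library.

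Fstl1, a secreted glycoprotein of the stroma with a follistatin domain, was the most abundant member per kb in resistant tumour CAFs. It had 855 and 1039 CPM in resistant tumour CAFs, against 276 and 275 CPM in normal tumour CAFs, or 193 CPM per kb in resistant tumour CAFs and 56.0 CPM per kb in normal tumour CAFs. It rose by 1.78 ± 0.22 (SE, edgeR adjusted p = 9.17e-05) and kept its call in all 14 alternatives.

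Promoters of 4 called members are shown because each held 1 of the 2 short motifs linked to SMAD proteins, and because they moved in opposite directions, Grem1 (a BMP antagonist described with its arm) and Fstl3 higher, Tgfb2 and Ltbp4 lower. They were chosen after the values were seen. Each run is the 250 bases before the start of transcription, 5′ to 3′ on the gene's strand, from RefSeq on GRCm38.p6. Capitals mark GGCGCC, a GC box of BMP-responsive promoters, or CAGACA, a SMAD-binding element, which reads TGTCTG on the other strand. The motifs do not overlap each other.
Grem1, chr2:113758649-113758898, minus strand: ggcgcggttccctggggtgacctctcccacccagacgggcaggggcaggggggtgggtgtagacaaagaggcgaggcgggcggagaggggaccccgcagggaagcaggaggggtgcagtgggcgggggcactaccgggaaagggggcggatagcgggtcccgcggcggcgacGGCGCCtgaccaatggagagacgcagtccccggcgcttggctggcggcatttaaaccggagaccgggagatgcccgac
Fstl3, chr10:79777024-79777273, plus strand: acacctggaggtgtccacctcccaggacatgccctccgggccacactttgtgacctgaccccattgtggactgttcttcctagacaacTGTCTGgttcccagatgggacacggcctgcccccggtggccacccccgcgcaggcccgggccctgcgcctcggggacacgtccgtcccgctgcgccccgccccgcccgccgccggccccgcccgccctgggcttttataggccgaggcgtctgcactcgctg
Tgfb2, chr1:186705990-186706239, minus strand: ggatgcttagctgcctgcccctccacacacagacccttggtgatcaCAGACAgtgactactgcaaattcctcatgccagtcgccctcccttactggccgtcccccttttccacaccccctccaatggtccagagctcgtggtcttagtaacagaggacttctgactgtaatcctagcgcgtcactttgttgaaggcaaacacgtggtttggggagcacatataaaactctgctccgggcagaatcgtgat
Ltbp4, chr7:27333664-27333913, minus strand: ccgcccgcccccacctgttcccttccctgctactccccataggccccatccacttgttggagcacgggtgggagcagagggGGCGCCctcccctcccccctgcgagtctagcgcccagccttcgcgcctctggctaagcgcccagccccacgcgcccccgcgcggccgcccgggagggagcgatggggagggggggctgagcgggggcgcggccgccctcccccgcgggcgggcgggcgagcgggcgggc

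The GC box began 78 bases before the start in Grem1 and 169 bases before it in Ltbp4. The SMAD-binding element began 162 bases before the start in Fstl3 and 204 bases before it in Tgfb2. Promoters were at hand for 41 of the 59 members, some with several starts. Of their 50 windows, GGCGCC lay in 13 (26.0%) and CAGACA in 7 (14.0%), beside 9.59% and 17.1% of all 32851 promoter windows. Base composition was not matched in that comparison. A match is a description of the sequence and was found here in members that rose and in members that fell. Ltbp4 has 3 annotated starts, and the window shown was chosen because it holds the GC box. An overlapping window places the same box 184 bases before its start, and the third window holds neither motif.

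Inside the cell, the transducers Smad2, Smad3 and Smad4 did not pass the test. Of the genes that restrain the signal, Pmepa1 and Smad7 fell and Ski rose, while Skil, Smad6, Smurf1, Smurf2 and Bambi were not called. Smad2 had 80.3 and 83.7 CPM in resistant tumour CAFs, against 107 and 88.9 CPM in normal tumour CAFs, and Smad3 had 205 and 89.9 CPM in resistant tumour CAFs, against 88.2 and 104 CPM in normal tumour CAFs. Their log2 fold changes were -0.25 ± 0.32 and 0.62 ± 0.37. The value of Smad3 moved with 1 library, since it was -0.09 without resistant replicate 1 and 1.09 without resistant replicate 2 (edgeR adjusted p = 0.0123). Smad4, the partner of both SMAD sets, had 89.0 and 53.2 CPM in resistant tumour CAFs, against 58.0 and 30.0 CPM in normal tumour CAFs, with a log2 fold change of 0.70 ± 0.42 (SE, edgeR adjusted p = 0.25).

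Pmepa1 encodes a membrane protein that is induced by TGF-beta and holds back SMAD2 and SMAD3. It had 25.9 and 42.6 CPM in resistant tumour CAFs, against 123 and 111 CPM in normal tumour CAFs, and fell by 1.77 ± 0.37 (SE, edgeR adjusted p = 0.00294). Smad7, the inhibitory SMAD induced by both arms, had 24.4 and 20.6 CPM in resistant tumour CAFs, against 73.8 and 92.1 CPM in normal tumour CAFs. It fell by 1.89 ± 0.38 (SE, edgeR adjusted p = 0.00234), and like Pmepa1 it was called in every alternative. Both genes were thus lower in both resistant libraries than in either normal one. Skil, a co-repressor that is also a TGF-beta target, had 174 and 110.1 CPM in resistant tumour CAFs, against 166 and 183 CPM in normal tumour CAFs, with a log2 fold change of -0.30 ± 0.30 (SE, edgeR adjusted p = 0.498), which passed without resistant replicate 1 (edgeR adjusted p = 0.0474). Its relative Ski had 226 and 144 CPM in resistant tumour CAFs, against 111 and 62.8 CPM in normal tumour CAFs, and rose by 1.09 ± 0.35 (SE, edgeR adjusted p = 0.0329). The call of Ski was lost when resistant replicate 1 (edgeR adjusted p = 0.125), normal replicate 1 (edgeR adjusted p = 0.0679) or normal replicate 2 (edgeR adjusted p = 0.534) was left out.

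The ubiquitin ligases that turn over SMADs and receptors, Smurf1 and Smurf2, were not called. Smurf1 had 49.1 and 38.5 CPM in resistant tumour CAFs, against 69.1 and 51.0 CPM in normal tumour CAFs, with a log2 fold change of -0.45 ± 0.37. Smurf2 had 124 and 95.4 CPM in resistant tumour CAFs, against 76.6 and 46.6 CPM in normal tumour CAFs, with a log2 fold change of 0.84 ± 0.36. Bambi, a decoy receptor for the family, had 25.9 and 12.5 CPM in resistant tumour CAFs, against 17.1 and 22.0 CPM in normal tumour CAFs, with overlapping ranges.

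**Figure D3:**
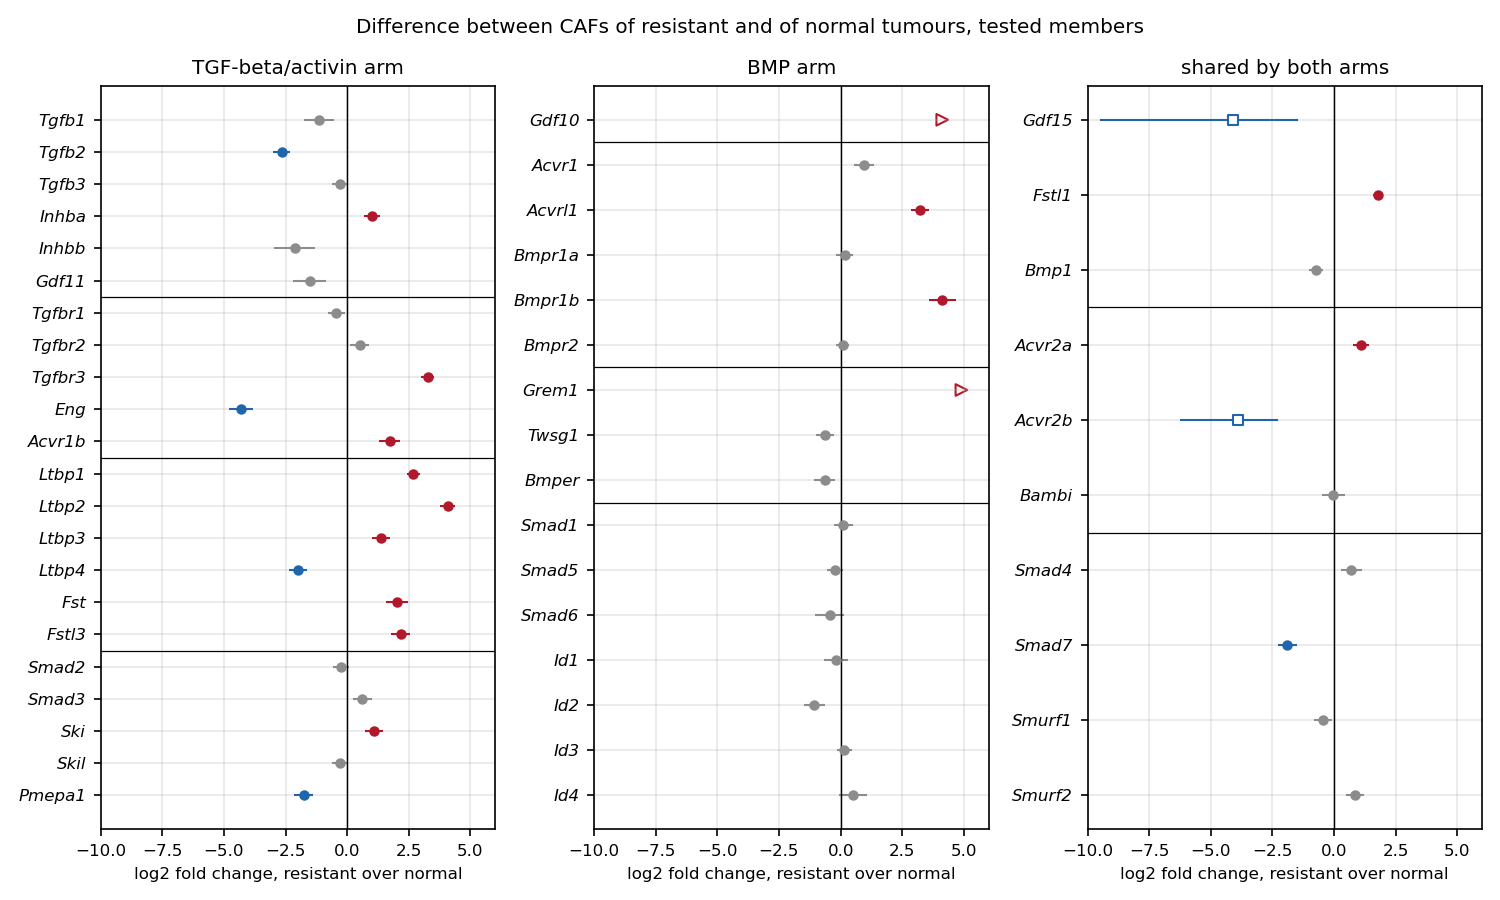
Log2 fold change of the 48 tested members, resistant over normal tumour CAFs, by arm and role. Filled circles with bars give the edgeR value and its SE, red for members called higher, blue for members called lower and grey for members not called; open triangles give lower bounds (Gdf10 and Grem1) and open squares give count ratios with their 95% counting interval (Gdf15 and Acvr2b). Red and blue symbols stand side by side among receptors and binding proteins of the TGF-beta and activin arm, and the BMP arm shows 4 red symbols, of which Gdf10, Bmpr1b and Grem1 passed the filter through the resistant libraries only.

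In the BMP arm, ligand genes were scarce in all 4 libraries. Gdf5 had no read, and Bmp2, Bmp4, Bmp5, Bmp7 and Gdf6 had at most 5 reads in any library. Bmp6, a BMP known for its part in iron balance, had 6 and 6 reads in resistant tumour CAFs, against 9 and 5 reads in normal tumour CAFs. A count of 0 allows up to 3 reads, or 1.14 and 1.10 CPM in the resistant libraries and 0.743 and 0.505 CPM in the normal ones, which limits what a gene with no read could still have had. These 7 ligand genes did not pass the filter and were not tested.

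Gdf10, also called BMP3b, was the 1 ligand gene sorted into the BMP arm that passed the filter. Which SMAD proteins it acts on in these cells was not tested. It had 14 and 14 reads in resistant tumour CAFs, against 0 and 0 reads in normal tumour CAFs. Against 3 reads over the normal group it was at least 17.4-fold higher in resistant tumour CAFs, and it was called (edgeR adjusted p = 4.76e-04). Gdf10 was one of the rarer called members in resistant tumour CAFs. Gdf15, a distant family member induced by cell stress and placed with the members of both arms, had 0 and 1 reads in resistant tumour CAFs, against 14 and 18 reads in normal tumour CAFs. Its normal-to-resistant ratio was 17.2 (exact 95% counting interval 2.87 to 699). The gene was called lower (edgeR adjusted p = 0.0107), and lost the call with DESeq2 (adjusted p = 0.125), without resistant replicate 1 (edgeR adjusted p = 0.0875) and without normal replicate 2 (edgeR adjusted p = 0.0564).

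BMP receptors rose or were not called. Acvrl1 encodes ALK1, the type I receptor of BMP9 and BMP10, and is known from endothelium, where it works with endoglin. It had 135 and 153 CPM in resistant tumour CAFs, against 14.6 and 16.3 CPM in normal tumour CAFs, and rose by 3.21 ± 0.36 (SE, edgeR adjusted p = 4.05e-05) on the log2 scale. Acvrl1 and its co-receptor gene Eng therefore lay in opposite directions in the same libraries. Bmpr1b, a type I receptor of BMPs and GDF5 known from skeletal mesenchyme, had 37.3 and 25.0 CPM in resistant tumour CAFs, against 2.48 and 1.18 CPM in normal tumour CAFs, and rose by 4.12 ± 0.55 (SE, edgeR adjusted p = 1.44e-04). The groups did not overlap for either receptor gene.

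Bmpr1a and Bmpr2, the widely expressed type I and type II BMP receptors, had overlapping ranges. Bmpr1a had 179 and 108 CPM in resistant tumour CAFs, against 155 and 100.3 CPM in normal tumour CAFs. Bmpr2 had 169 and 168 CPM in resistant tumour CAFs, against 174 and 145 CPM in normal tumour CAFs. Their log2 fold changes were 0.17 ± 0.34 (SE, edgeR adjusted p = 0.757) and 0.08 ± 0.27 (SE, edgeR adjusted p = 0.854). Acvr1, which encodes the type I receptor ALK2, had 54.4 and 46.2 CPM in resistant tumour CAFs, against 31.7 and 21.0 CPM in normal tumour CAFs, and its log2 fold change of 0.94 ± 0.40 (SE, edgeR adjusted p = 0.1) missed the threshold though its ranges did not overlap. Per kb, the share of Bmpr1a in the sum of the 4 type I BMP receptors was 36.4% and 25.4% in resistant tumour CAFs, against 70.0% and 65.3% in normal tumour CAFs. The share of Acvrl1 was 40.9% and 54.0% in resistant tumour CAFs, against 9.86% and 15.8% in normal tumour CAFs. Acvrl1 was the most abundant of the 4 in both resistant libraries and Bmpr1a in both normal ones.

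Of 6 extracellular BMP antagonists and modulators, 3 were tested, while Nog, Chrd and Chrdl1 did not pass the filter. Grem1 was the 1 called, a share of 33.3% beside 29.4% of all genes tested, and passed the filter through the resistant libraries only. Grem1 encodes gremlin 1, which binds and blocks BMP2 and BMP4. It had 23 and 25 reads in resistant tumour CAFs, against 0 and 0 reads in normal tumour CAFs, at least 29.8-fold higher in resistant tumour CAFs against 3 reads over the normal group (edgeR adjusted p = 1.56e-04). Nog (noggin) and Chrdl1 (chordin-like 1) had no read in any library, and Chrd (chordin) had 5 and 9 reads in resistant tumour CAFs, against 11 and 7 reads in normal tumour CAFs. Twsg1, a chordin partner, was the most abundant of the 6, with 159.8 and 73.4 CPM in resistant tumour CAFs, against 194 and 166 CPM in normal tumour CAFs. Its log2 fold change was -0.63 ± 0.35 (SE, edgeR adjusted p = 0.214), but -1.28 without resistant replicate 1, which passed (edgeR adjusted p = 0.00586). Bmper, a secreted BMP binding protein, had 14.1 and 17.2 CPM in resistant tumour CAFs, against 20.6 and 28.3 CPM in normal tumour CAFs, with a log2 fold change of -0.64 ± 0.43 (SE, edgeR adjusted p = 0.294). Bmp1 is no BMP ligand but a protease that cleaves procollagen and chordin, and it had 166 and 103 CPM in resistant tumour CAFs, against 232 and 213 CPM in normal tumour CAFs. With a log2 fold change of -0.73 ± 0.29 (SE, edgeR adjusted p = 0.0836) it missed the threshold here and passed in 5 alternatives, with -1.10 without resistant replicate 1 (edgeR adjusted p = 0.00755).

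Transducers and direct targets of BMP receptors did not pass the test. No gene of the 7 tested was called by edgeR's quasi-likelihood test, where 29.4% of all genes tested were called. At an unadjusted p under 0.05, 1 was lower and 0 higher. By limma-voom, the likelihood ratio test and DESeq2, 1, 0 and 0 were called lower. Smad1 and Smad5, the receptor SMADs of this arm, had log2 fold changes of 0.11 ± 0.39 and -0.24 ± 0.32, and Smad5 passed without resistant replicate 1, at -0.73 (edgeR adjusted p = 0.0354). Smad9, the third of them, was under the filter with 10 and 8 reads in resistant tumour CAFs, against 3 and 2 reads in normal tumour CAFs. Smad6, the inhibitory SMAD of the BMP arm, had 13 and 6 reads in resistant tumour CAFs, against 25 and 22 reads in normal tumour CAFs.

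The ID genes encode inhibitors of basic helix-loop-helix factors. Id3 was the most abundant, with 120.2 and 185 CPM in resistant tumour CAFs, against 151 and 124 CPM in normal tumour CAFs. Id1 had 16.7 and 40.4 CPM in resistant tumour CAFs, against 24.8 and 40.4 CPM in normal tumour CAFs, and Id4 had 3.81 and 5.14 CPM in resistant tumour CAFs, against 3.72 and 2.69 CPM in normal tumour CAFs. Resistant and normal libraries overlapped for Id1 and Id3, and for Id1 resistant replicate 2 lay at the level of normal replicate 2 while resistant replicate 1 lay under both normal ones. Id2 had 19.8 and 49.2 CPM in resistant tumour CAFs, against 64.4 and 79.9 CPM in normal tumour CAFs, with both resistant libraries under both normal ones. Its log2 fold change of -1.06 ± 0.44 (SE, edgeR adjusted p = 0.093) missed the threshold, and it passed in 5 alternatives, among them limma-voom (adjusted p = 0.0435) and the fit without resistant replicate 2, at -1.87 (edgeR adjusted p = 0.00923). Without resistant replicate 1 it was -0.55. Per kb, the 4 ID genes summed to 90.7 and 159.6 CPM per kb in resistant tumour CAFs, against 133 and 137 CPM per kb in normal tumour CAFs.

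**Figure D4:**
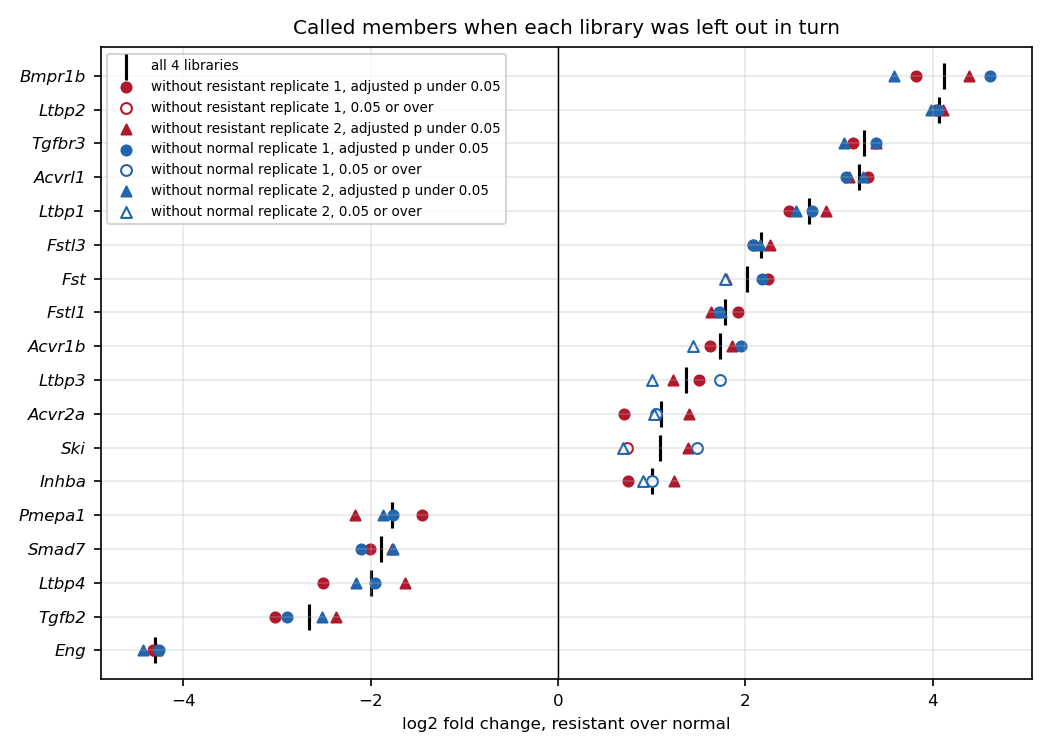
Log2 fold change of 18 called members with all 4 libraries (bars) and with each library left out in turn (red symbols, a resistant library left out; blue symbols, a normal library left out; open symbols, adjusted p of 0.05 or over). No member changes side of 0, and open symbols appear for Fst, Acvr1b, Ltbp3, Acvr2a, Ski and Inhba.

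Other genes of the pathway were read from lists that hold no member. Of 14 tested genes that release or store latent TGF-beta, 6 rose and 2 fell (4 and 2 without either single normal replicate), a share of 57.1% beside 29.4% of all genes tested. Itgb8 encodes the beta subunit of an integrin that activates TGF-beta, and had 0 and 2 reads in resistant tumour CAFs, against 321 and 290 reads in normal tumour CAFs, a normal-to-resistant ratio of 164 (exact 95% counting interval 45.2 to 1356). Emilin1, a matrix protein that restrains TGF-beta processing, rose by 3.17 ± 0.35 (SE, edgeR adjusted p = 3.83e-05). Fbn2 (fibrillin 2) had 19 and 15 reads in resistant tumour CAFs, against 0 and 0 reads in normal tumour CAFs, and was at least 21.1-fold higher, against 3 reads over the normal group as for each such bound. Among the genes called, Itgb8 passed the filter through the normal libraries only and Fbn2 through the resistant libraries only. The median log2 fold change of the list was 0.90, beside 0 over all genes tested.

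Of 11 tested other ligands, co-receptors and antagonists of the family 5 rose, a share of 45.5% where 15.5% of all genes tested were higher. Lefty1 and Tll1, which are among the 5, passed the filter through the resistant libraries only. None fell by edgeR's quasi-likelihood test, where 0 were lower at an unadjusted p under 0.05, and limma-voom, the likelihood ratio test and DESeq2 each called 0 lower. The 5 numbered 2 without normal replicate 1, 3 without normal replicate 2, 3 without resistant replicate 1 and 8 without resistant replicate 2. Lefty1, a secreted inhibitor of nodal signalling, had 26 and 31 reads in resistant tumour CAFs, against 0 and 0 reads in normal tumour CAFs, at least 35.4-fold higher. Tll1, a protease related to Bmp1, had 23 and 14 reads in resistant tumour CAFs, against 3 and 6 reads in normal tumour CAFs. It rose by 2.91 ± 0.63 (SE, edgeR adjusted p = 0.00399).

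Of 20 tested intracellular regulators 1 rose and 3 fell, a share of 20.0% beside 29.4% of all genes tested. Nedd4l, a ubiquitin ligase that acts on activated SMAD2 and SMAD3, had 31.2 and 11.7 CPM in resistant tumour CAFs, against 123 and 109 CPM in normal tumour CAFs, and fell by 2.43 ± 0.45 (SE, edgeR adjusted p = 0.00136). Crebbp, a coactivator of SMADs and many other factors, rose by 1.54 ± 0.39 (SE, edgeR adjusted p = 0.01), and Tgif2, a co-repressor, fell by 1.46 ± 0.41 (SE, edgeR adjusted p = 0.0165). Without normal replicate 2, 0 rose and 2 fell; without normal replicate 1, 1 rose and 1 fell; without resistant replicate 1, 0 rose and 6 fell.

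Of 15 tested TGF-beta and SMAD3 targets 5 rose and 3 fell, a share of 53.3% beside 29.4% of all genes tested, and the median log2 fold change was 0.50, beside 0 over all genes. Cilp, a cartilage and heart matrix gene, had 61.6 and 33.0 CPM in resistant tumour CAFs, against 1.49 and 0.337 CPM in normal tumour CAFs, and rose by 5.78 ± 0.67 (SE, edgeR adjusted p = 5.27e-05). Tgfbi, a matrix protein named for its induction by TGF-beta, rose by 1.54 ± 0.23 (SE, edgeR adjusted p = 2.88e-04). Scx, a tendon transcription factor, fell by 3.95 ± 0.65 (SE, edgeR adjusted p = 6.06e-04). Cilp entered the test through the resistant libraries only, and Scx through the normal libraries only. The myofibroblast genes Acta2 and Tagln had log2 fold changes of 0.21 ± 0.26 and 0.55 ± 0.26, neither called. Acta2 and Tagln were named after their values were seen. Without normal replicate 1 the list had 3 higher and 2 lower calls, and without normal replicate 2 it had 3 and 1.

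Of 9 tested BMP and SMAD1/5 targets outside the ID family 7 fell, where 13.9% of all genes tested were lower. The number was 4 with a filter of at least 50 reads in 2 libraries, and it was also smaller when either normal replicate was left out. Of the 7, Dlx3, Dlx5 and Hey1 had no read in either resistant library and entered the test through the normal libraries only. None rose by edgeR's quasi-likelihood test, where 1 was higher at an unadjusted p under 0.05, and limma-voom, the likelihood ratio test and DESeq2 called 0, 1 and 0 higher. Dlx2, a homeobox gene of neural crest and forebrain, had 4.57 and 1.84 CPM in resistant tumour CAFs, against 72.6 and 93.8 CPM in normal tumour CAFs, and fell by 4.69 ± 0.52 (SE, edgeR adjusted p = 4.05e-05). Hey1, which is also a Notch target, had 0 and 0 reads in resistant tumour CAFs, against 94 and 145 reads in normal tumour CAFs, and was at least 42.7-fold lower against 3 reads over the resistant group. Gata2, a transcription factor of blood and endothelial lineages, fell by 3.12 ± 0.52 (SE, edgeR adjusted p = 6.46e-04). The others that fell were Dlx3, Dlx5, Runx2 and Gata3, and Msx1 and Atoh8 were not called. All 9 tested genes of the list encode transcription factors, so this holds for the list and not only for the genes that fell. The median log2 fold change of the list was -2.76 with the genes at 0 in resistant tumour CAFs set at their bound. Of the direct BMP targets among the members, Id1, Id2, Id3, Id4 and Smad6 were not called, and the difference between these and the list was not tested. These 7 genes fell where the Schwann cell and neural crest markers fell, whose part was not tested.

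The authors' deposited table listed 53 of the 59 members. Its call asks for an adjusted p under 0.1 and a log2 fold change of 2 or more in size. By it, the authors' deposited table had 8 members higher and 3 lower in resistant tumour CAFs, all of which were also called here in the same direction. The same call held for 8.50% of all genes of the authors' deposited table.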

How the data were processed

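Counts, the raw reads per gene symbol, were used as deposited. Per the submitters' processing notes bcl2fastq 2, TopHat2 2.1.1, Picard 1.62, HTSeq 0.7.2, DESeq2 and the build mm9 were used, with roles, settings, strand use and annotation not given in the sources used here. Library preparation is described per the labels' protocols with both a TruSeq kit and SMART-seq2, without saying which library had which. The authors' deposited table gives log2 fold changes, positive where resistant tumour CAFs were higher, and adjusted p-values. A deposited table of counts divided by 1 constant per library was not used.

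The test was edgeR 4.0.16 under R 4.3.3 (filterByExpr, minimum count 10, trimmed mean of M values, glmQLFit and glmQLFTest, group as the only term), resistant minus normal, over all 12001 genes. The SE is the fold change divided by the root of its F statistic. The procedure was tested on simulated data. A fold against a group at 0 is a bound against 3 reads over that group; intervals and floors cover counting error only. Exonic lengths and the overlaps of exons between genes came from GENCODE M21 (GRCm38), in which 59 of the 59 members and 95.1% of tested genes were found.

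Of the 14 alternatives, 4 changed the scaling (upper-quartile factors, relative log expression, library totals, and offsets that take out a loess trend of span 0.5 along abundance), 2 the filter (none, or at least 50 reads in 2 libraries) and 3 the test (limma-voom in limma 3.58.1, DESeq2 1.42.0, the likelihood ratio test). The replicate number was added as a block in 1, and 4 left out a library each. Members and lists were chosen with earlier results of these data known. Members were named by role: called ones with values, and of the other pathway lists up to 3 called genes with the smallest adjusted p; genes named otherwise were chosen after their values were seen, and some genes are not reported here. Protein sequences were not used here.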

Additional observations from a re-analysis of the deposited data

How the results depend on the processing

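Of 660 pairs of a tested member and an alternative, 598 kept direction and side of the threshold, and 15 of the 22 called members were called in every alternative in which they could be tested. The 7 others, Inhba, Acvr1b, Ltbp3, Fst, Ski, Gdf15 and Acvr2a, lost the call when at least 1 library was left out. A group left with 1 library is assumed to vary like the other.

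Members called higher in the TGF-beta and activin arm numbered 4 to 11 when single libraries were left out, lowest without normal replicate 2 and 6 without normal replicate 1. BMP arm members called higher were 2 with at least 50 reads in 2 libraries, which drops Gdf10 and Grem1. BMP arm members called lower were 1 with library totals, without the low-count filter and with limma-voom, 2 with the replicate number as a block, and 0 to 2 when single libraries were left out. Of the members of both arms, 1 was called lower with at least 50 reads, and 1 to 2 were called higher when single libraries were left out. Other pathway genes called higher numbered 10 to 20 when single libraries were left out. All genes called higher numbered 1078 to 2024, and lower 951 to 2323. Library totals moved the median over all genes by -0.14 on the log2 scale.

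None of the members that changed sign was called in the analysis of all libraries. Bmpr2 had -0.05 with library totals and -0.03 with abundance offsets. Smad1 had -0.03 with library totals, and Bambi 0.00 with at least 50 reads. With single libraries left out, values ranged from -0.39 to 1.07 for Tgfbr2, -0.08 to 0.16 for Bmpr2, -0.09 to 1.09 for Smad3, -0.23 to 0.49 for Bmpr1a, -0.25 to 0.41 for Smad1, -0.73 to 0.13 for Smad5, -1.13 to 0.02 for Smad6, -0.97 to 0.31 for Id1, -0.19 to 0.44 for Id3 and -0.65 to 0.39 for Bambi. The cause was not tested.

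Replicate numbers are shared by the groups, but with 2 pairs they are no more than a number; deviations of same-numbered libraries correlated at 0.217. With the number as a block, 2257 genes were higher and 2267 lower over all genes, and among members the counts were 9 and 6 in the TGF-beta and activin arm, 5 and 2 in the BMP arm, and 3 and 4 in both arms. Acvr1 and Smurf2 were called higher in that fit alone (edgeR adjusted p = 0.0345 and 0.033). Depth sets what a gene with no read could have had, since 3 reads are 0.505 to 1.14 CPM.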
